A study of Mus musculus with 18 samples.

Results

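The 4 mouse Hox clusters were followed as 1 kb tiles of DNA methylation. A tile needed at least 3 CpGs, each covered by 5 or more reads with both strands added, in at least 2 samples of each group of a comparison. The windows, on build mm9, were Hoxa at chr6:52100000-52230000, Hoxb at chr11:96050000-96240000, Hoxc at chr15:102745000-102875000 and Hoxd at chr2:74490000-74610000. They held 229 of the 136365 tiles measured over the genome, with 59 in Hoxa, 69 in Hoxb, 53 in Hoxc and 48 in Hoxd. Of the 229 tiles, 110 were measured in all 18 samples, and a comparison could test 123 to 207 of them.

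Hox genes encode homeodomain transcription factors that set position along the body axis and in the limbs. In mammals they lie in clusters in which the order of the genes follows the order of their expression domains, with the group 13 genes at the posterior end. In pluripotent cells the clusters are CpG-rich domains held silent by Polycomb complexes, and fibroblasts keep part of the Hox expression of their site of origin.

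Reduced representation bisulfite sequencing reads the methylation of CpGs near restriction sites in genomic DNA, mostly in CpG-rich fragments. The labels gave 7 groups. Pluripotent cells were 2 samples of induced pluripotent stem cells (iPSC), all female, and embryonic stem cells (ESC), with 4 female and 2 male samples. The others were female reprogramming intermediates positive (SSEA1+, n = 2) or negative (SSEA1-, n = 2) for SSEA1, a surface antigen of mouse pluripotent cells, female mouse embryonic fibroblasts (MEF, n = 4) and male MEF (n = 2). The labels give no strain, line, reprogramming factors, day or embryonic age for any group. Whether replicates are separate cultures or animals is not stated, and p-values therefore reflect only how far these particular libraries differ, which may be technical. No start of a pluripotency or fibroblast marker gene could be placed on the build, so the cell type labels were not checked by markers.

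Promoter sequences of 46 RefSeq starts in the windows were compared with the positions of the CpGs read, and 16 starts of 14 genes could be placed in this way. None lay in Hoxc, and in Hoxb only starts of the non-coding RNA genes Gm30134 and Hoxb3os were placed. The lines below give the 250 bases before the start from RefSeq (GRCm38.p6), 5′ to 3′, with the CpGs that were read in capitals. Hoxa5, a regulator of lung and axial skeleton development, and its neighbour Hoxa6 are shown because CpGs upstream of them carried methylation in fibroblasts. Hoxd9, which acts in the lumbar skeleton and forelimb, is the nearest placed start to a pair of tiles that were lower in ESC than in MEF. Hoxa13, needed for digits and the hindgut, and Hoxd1, which acts in pain-sensing neurons, are shown as starts near 0 in every sample read.
Hoxa5: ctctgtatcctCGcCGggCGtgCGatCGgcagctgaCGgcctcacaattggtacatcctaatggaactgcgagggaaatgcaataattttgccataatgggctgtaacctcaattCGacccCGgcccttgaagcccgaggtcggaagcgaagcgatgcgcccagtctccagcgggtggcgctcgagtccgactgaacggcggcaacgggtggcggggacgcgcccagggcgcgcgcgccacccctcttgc
Hoxa6: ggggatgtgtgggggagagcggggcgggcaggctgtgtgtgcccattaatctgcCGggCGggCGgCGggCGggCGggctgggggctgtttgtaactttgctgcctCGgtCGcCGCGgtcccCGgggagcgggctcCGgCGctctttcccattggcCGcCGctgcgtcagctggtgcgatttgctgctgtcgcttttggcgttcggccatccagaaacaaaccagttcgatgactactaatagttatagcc
Hoxd9: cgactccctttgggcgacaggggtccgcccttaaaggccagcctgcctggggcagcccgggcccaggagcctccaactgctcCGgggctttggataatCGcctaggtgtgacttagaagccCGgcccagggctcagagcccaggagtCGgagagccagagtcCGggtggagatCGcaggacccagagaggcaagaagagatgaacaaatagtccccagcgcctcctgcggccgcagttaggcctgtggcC
Hoxa13: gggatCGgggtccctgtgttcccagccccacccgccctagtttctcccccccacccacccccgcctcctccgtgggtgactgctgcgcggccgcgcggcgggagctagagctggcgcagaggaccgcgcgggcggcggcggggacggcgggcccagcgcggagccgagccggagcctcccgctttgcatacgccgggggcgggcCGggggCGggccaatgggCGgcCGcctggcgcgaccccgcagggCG
Hoxd1: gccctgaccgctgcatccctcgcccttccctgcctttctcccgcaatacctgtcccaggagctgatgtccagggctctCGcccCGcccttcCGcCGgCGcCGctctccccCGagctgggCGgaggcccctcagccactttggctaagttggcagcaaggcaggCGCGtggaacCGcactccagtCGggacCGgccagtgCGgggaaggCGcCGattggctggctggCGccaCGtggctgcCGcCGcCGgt
The CpGs read were 8 of 28 for Hoxa5, 15 of 24 for Hoxa6, 6 of 13 for Hoxd9, 6 of 35 for Hoxa13 and 21 of 24 for Hoxd1. For Hoxa5 the capitals fall in a far run at the distal end and a pair of CpGs nearer the start, and most of the proximal CpGs were not read.

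Library totals ran from 11424460 to 62920167 reads over CpGs, and a Hox tile held a median of 170.0 reads per sample. The libraries formed 3 technical types, set by how many of their CpGs had reads from both strands, that the labels do not record. Type A held all ESC, female MEF 1 and male MEF 2. Type B held all SSEA1+ and SSEA1- libraries, female MEF 2 and male MEF 1. Type C held both iPSC libraries and female MEF 3 and 4. The iPSC libraries therefore share no type with ESC or SSEA1+, and no value within 1 type could be had for those comparisons. Type could be separated from group there only through the MEF libraries, in a model with type as a term, whose counts are given beside the results. In 7868 autosomal tiles outside the windows that stood at 2% or less in all male samples, the median level was 3.35 and 3.54% in iPSC and 0 to 0.793% in the other libraries. Male levels are low there by the choice of tiles. Female MEF 3 and 4, of the same type as iPSC, stood at 0.729 and 0.793%. This level is called background below. Whether it is technical or methylation of the iPSC was not tested. Female MEF 3 and 4 correlated more closely across Hox tiles (Pearson r = 0.977) than the other pairs of female MEF (0.878 to 0.920). They may not be independent, and counts that change without them are given with and without. Counts under such changed settings are of Hox tiles only, and the share of all tiles was not counted for them.

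Most of the Hox tiles measured in all samples were lowly methylated in every group. Over the 110 tiles measured in all samples, the median tile level was 9.13% in iPSC, 5.37% in female ESC, 6.96% in male ESC, 2.53% in SSEA1+, 2.97% in SSEA1-, 6.21% in female MEF and 4.48% in male MEF. The number of tiles under 10% was 57 in iPSC, 75 in female ESC, 65 in male ESC, 92 in SSEA1+, 86 in SSEA1-, 69 in female MEF and 80 in male MEF. Tiles above 50% numbered 6 for iPSC, 2 for female ESC, 6 for male ESC, 0 in SSEA1+, 1 in SSEA1-, 4 in female MEF and 3 in male MEF. Low level was thus the rule in each group among these tiles, with a small number of methylated tiles. Tiles with 3 to 9 CpGs read made up 40 of the 110, but 124 of the 207 tested between female ESC and female MEF. The tiles left out include methylated ones, such as chr11:96110001-96111000, described below.

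Among tiles measured in all samples, how the clusters compared with other autosomal tiles depended on the number of CpGs read in a tile. This number is the median over samples and can be below the number that the tile contains, so it does not measure CpG density. In the 40 Hox tiles with 3 to 9 CpGs, sample medians were 2.77 to 17.2%, against 38.7 to 80.5% in 16391 other tiles of the same class. The Hox median was lower in 18 of 18 samples. In the 62 Hox tiles with 10 to 29 CpGs the order was the opposite, with 1.99 to 8.30% against 0.717 to 5.87% in 13613 other tiles, and the Hox median higher in 18 of 18 samples. In the 8 Hox tiles with 30 or more CpGs, medians were 0.519 to 4.38% against 0.127 to 3.86% in 2081 other tiles, again with Hox higher in 18 of 18 samples. Hox tiles with few CpGs read were therefore the ones that stood far from tiles of their own class.

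Hoxd had the highest mean level of the 4 clusters in each of the 7 groups. It stood at 17.8% ± 0.415 in iPSC (SD, n = 2), 10.4% ± 0.551 in female ESC (n = 4), 14.6% ± 1.63 in male ESC (n = 2), 7.15% ± 2.02 in SSEA1+ (n = 2), 10.1% ± 0.778 in SSEA1- (n = 2), 15.4% ± 3.06 in female MEF (n = 4) and 11.05% ± 2.32 in male MEF (n = 2). In male ESC, SSEA1+ and male MEF its lead over Hoxa was smaller than the SD. Hoxa stood at 13.3% ± 0.538 in iPSC, 7.81% ± 0.351 in female ESC, 13.4% ± 2.12 in male ESC, 6.99% ± 0.271 in SSEA1+, 7.99% ± 0.319 in SSEA1-, 10.8% ± 1.53 in female MEF and 10.9% ± 1.89 in male MEF. Hoxb was lowest in SSEA1- at 4.09% ± 0.569 and highest in iPSC at 14.97% ± 0.353. Hoxc was lowest in SSEA1+ at 4.30% ± 0.195 and highest in iPSC at 14.3% ± 0.330. The iPSC levels here are not corrected for the higher background level given above.

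**Figure D1:**
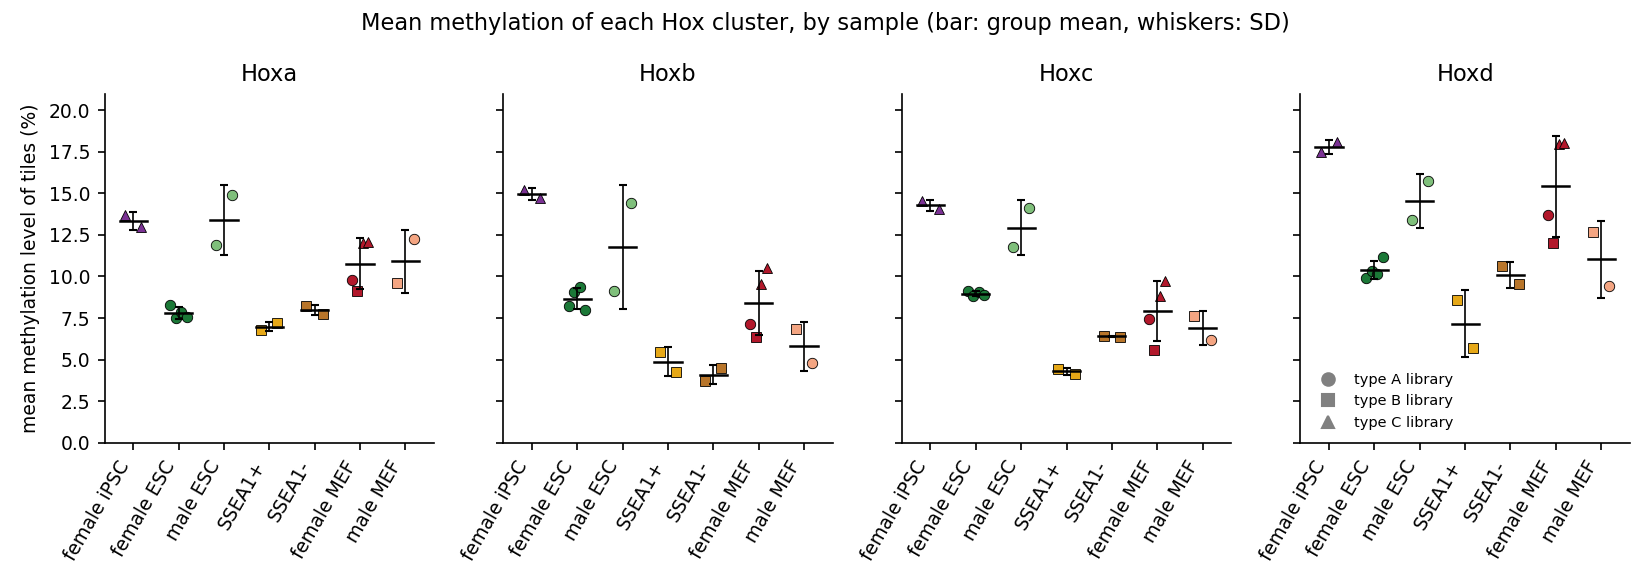
Mean methylation level (%) of the tiles of each Hox cluster measured in all 18 samples, 1 point per sample and 1 panel per cluster. Bars are group means, whiskers SD, and the point shape gives the library type. Both iPSC samples stand above every female ESC sample in each cluster, and female MEF 3 and 4 (triangles) stand above female MEF 1 and 2. Levels are not corrected for background, which was 3.35 and 3.54% in iPSC and 0 to 0.385% in female ESC.

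Female ESC lay below female MEF in Hoxa and Hoxd, with no such separation in Hoxb and Hoxc. For Hoxa the levels were 8.28, 7.52, 7.89 and 7.57% in female ESC, against 9.79, 9.13, 12.04 and 12.1% in female MEF. For Hoxd they were 9.90, 10.3, 10.2 and 11.2% in female ESC, against 13.7, 11.98, 17.9 and 18.0% in female MEF. All female ESC samples were below all female MEF samples in both clusters. The same held for the other autosomal tiles measured in all samples, with a mean of 23.9% in female ESC and 40.9% in female MEF. There the highest female ESC sample was at 24.1% and the lowest female MEF sample at 39.6%. A lower level in female ESC was therefore not particular to Hoxa and Hoxd. The differences were -2.95 points in Hoxa and -5.02 points in Hoxd, each at the lowest 2-sided p open to 4 against 4 samples in an exact permutation test (0.0286). Hoxb differed by 0.27 points (exact permutation p = 0.800) and Hoxc by 1.05 points (exact permutation p = 0.343), and their groups overlapped. After Benjamini-Hochberg adjustment over the 40 cluster tests none of the differences in any comparison passed 0.05, the lowest adjusted value being 0.222 (exact permutation tests), and 2 against 2 samples cannot go below an exact p of 0.333. Without female MEF 3 and 4 the differences were -1.64 points in Hoxa, 1.89 in Hoxb, 2.44 in Hoxc and -2.44 in Hoxd, each with an exact permutation p of 0.0667, the lowest that 4 against 2 samples allow. Within type A, where only female MEF 1 is left, the differences were -1.98 points in Hoxa, 1.49 in Hoxb, 1.49 in Hoxc and -3.29 in Hoxd.

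Set against the mean of the other 3 clusters in the same sample, the ESC minus MEF difference in females was -1.71 points for Hoxa, 2.58 for Hoxb, 3.62 for Hoxc and -4.48 for Hoxd. The exact permutation p was 0.0286 for each, with an adjusted value of 0.205 over 40 exact tests. By construction the 4 values sum to 0, so they are not 4 separate results. In males the same quantity was -2.71 for Hoxa, 1.99 for Hoxb, 2.03 for Hoxc and -1.32 for Hoxd. Without male MEF 2 the Hoxa value was -0.246 and without male MEF 1 it was -5.17, where that of Hoxd was 0.188. The Hoxb value was 0.624 without male ESC 2, 1.31 without male MEF 2 and 3.35 without male ESC 1. With 2 against 2 samples no test of the male values could pass.

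In tile tests, a tile was called when a quasi-binomial F test gave a Benjamini-Hochberg adjusted p under 0.05 over all tiles of the genome and the group means differed by 20 points or more. Between female ESC and female MEF, 12 of 207 Hox tiles were higher in ESC and 17 were lower. Over the genome 52.4% of tiles were called, 1.49% higher and 50.9% lower, while among Hox tiles 5.80% were higher and 8.21% lower. The median difference was -0.11 points in Hox tiles against -21.4 points in all tiles. Of the 207 Hox tiles, 100 had a higher and 107 a lower mean in female ESC, and tiles near 0 in MEF could not be called lower. Without female MEF 3 and 4 the count was 7 higher and 11 lower.

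**Figure D2:**
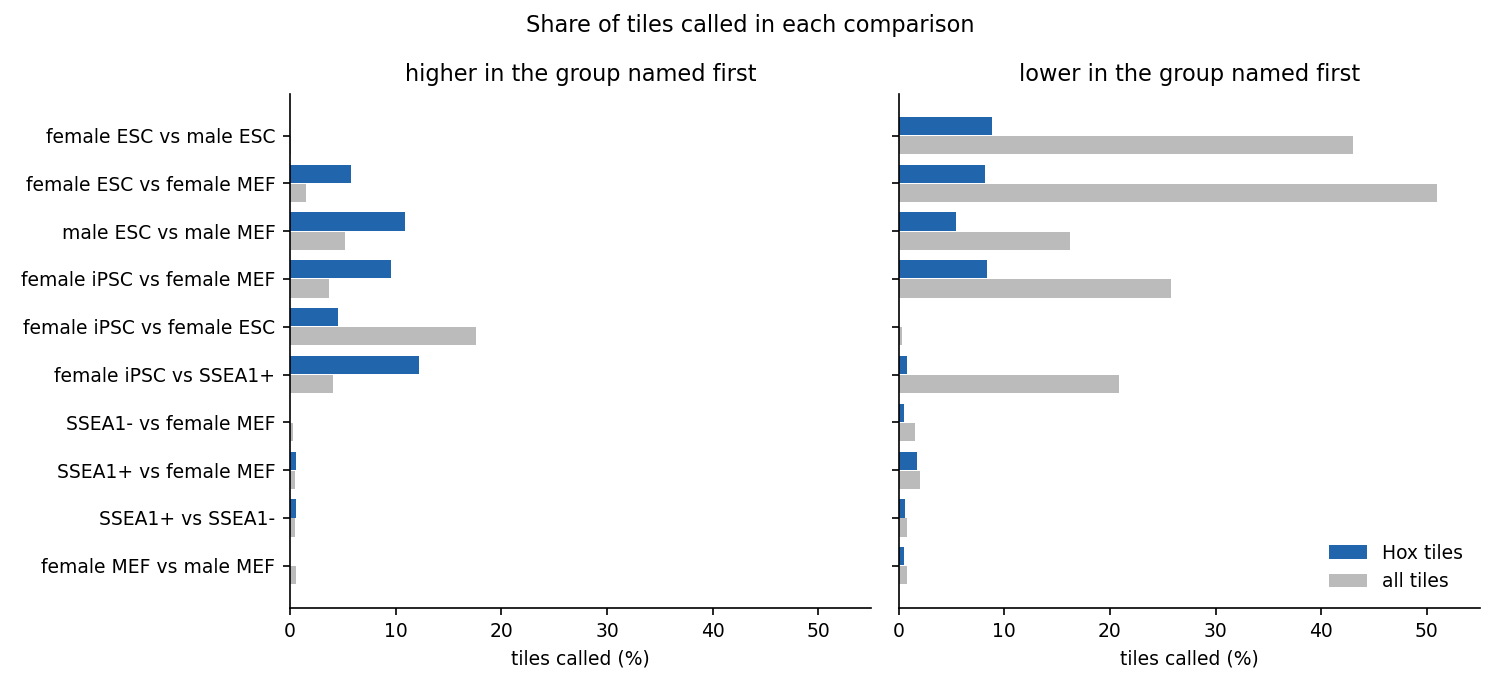
Percentage of Hox tiles (blue) and of all tiles (grey) called in each comparison, with tiles higher in the group named before "vs" on the left and tiles lower in it on the right. In female ESC against female MEF 8.21% of Hox tiles were lower, against 50.9% of all tiles.

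The clusters held different shares of these calls. Hoxa had 3 higher and 10 lower of 53 tiles, Hoxb 2 and 3 of 63, Hoxc 5 and 0 of 47, and Hoxd 2 and 4 of 44. The Hoxa tiles lower in ESC lay mostly along chr6:52113001-52160000, a stretch of 47 kb chosen after its values were seen and given without a test. It includes the starts of Hoxa5 and Hoxa6 and runs toward the anterior end of the cluster. Of its 17 tiles, 9 were lower in female ESC and 1 was higher, with a median difference of -21.4 points. The share lower in the stretch, 52.9%, and its median were close to those of all tiles of the genome (50.9% and -21.4 points). In the other 36 Hoxa tiles 1 was lower (2.78%) and 2 were higher, with a median difference of 1.12 points.

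**Figure D3:**
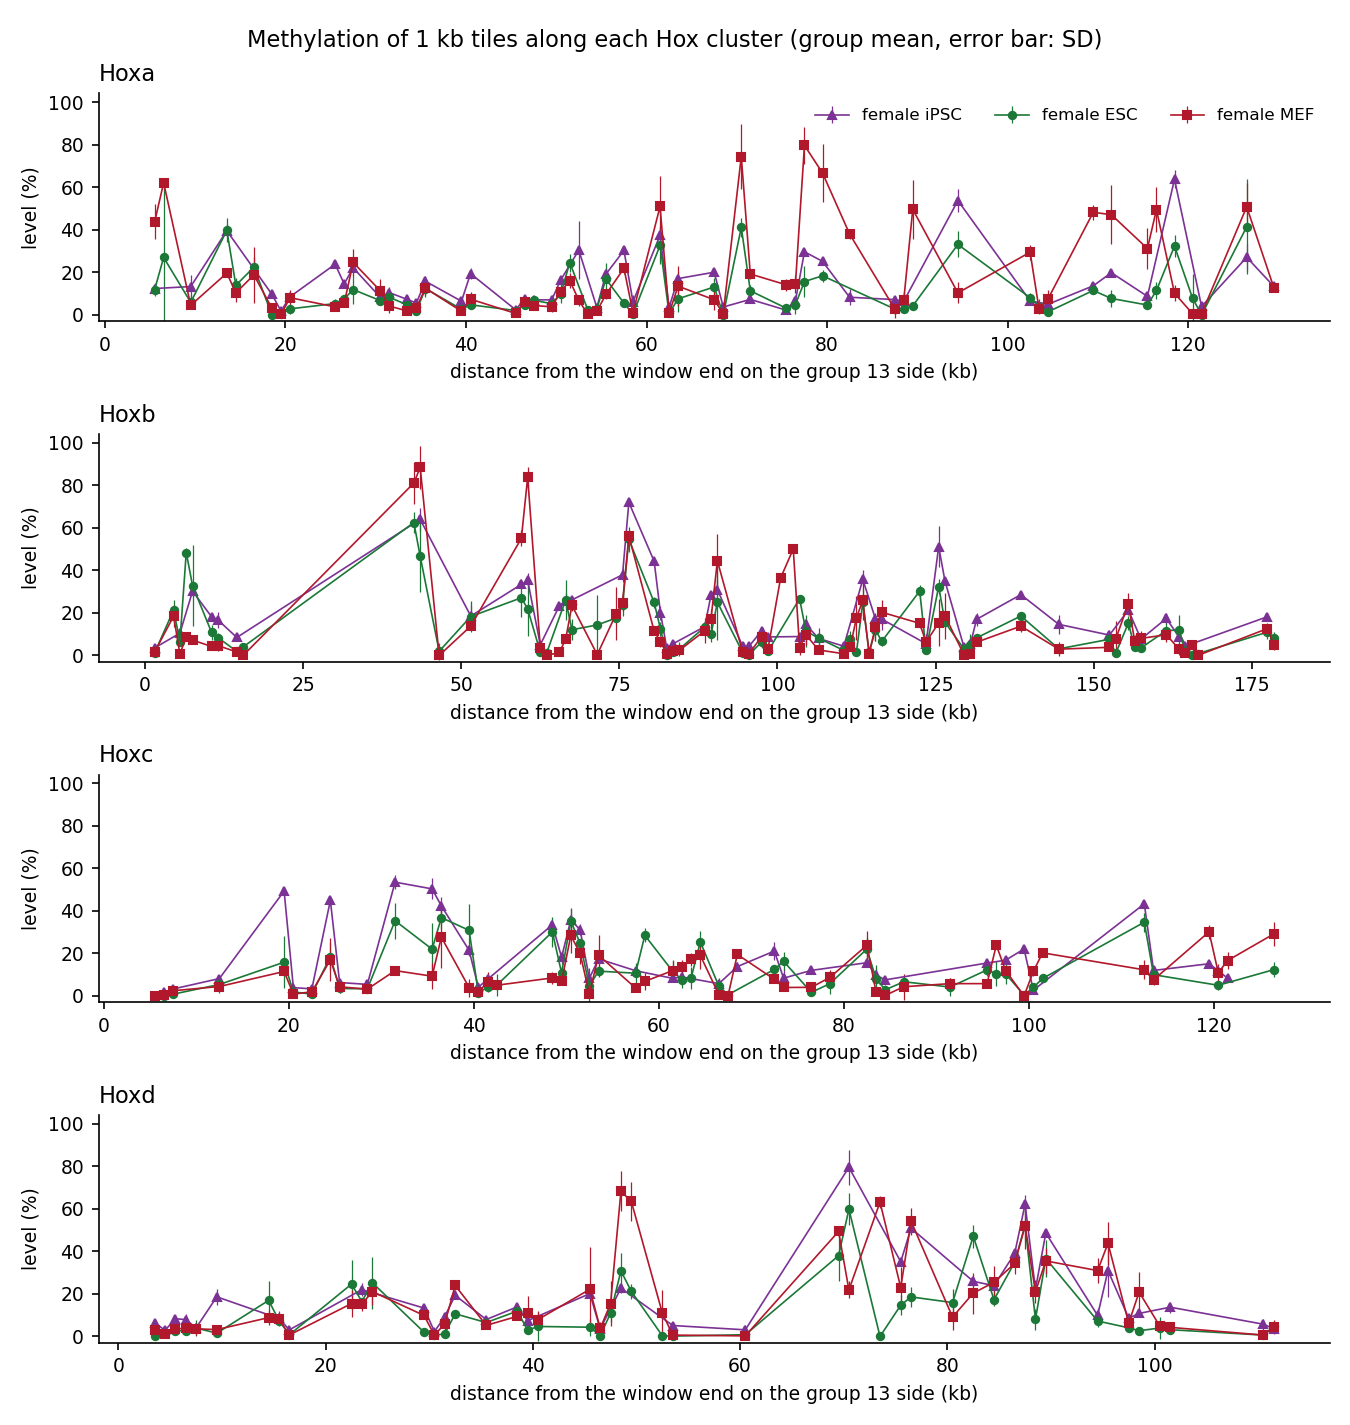
Methylation level (%) of 1 kb tiles against the distance (kb) from the window end on the group 13 side, 1 panel per cluster. Triangles are female iPSC, circles female ESC and squares female MEF, as group means with SD as error bars. In the anterior part of Hoxa several female MEF tiles stand far above ESC and iPSC, while most other tiles lie low in all 3 groups.

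Position was described by cutting each window into 3 equal segments from the group 13 end, with levels averaged over tiles measured in all samples. Counted from that end, the segments held 12, 13 and 8 such tiles in Hoxa and 5, 14 and 8 in Hoxb. In Hoxc they held 10, 7 and 4, and in Hoxd 11, 8 and 10. In Hoxa the segment at the anterior end was the highest in each group, at 20.2% ± 0.394 in iPSC, 11.8% ± 1.07 in female ESC, 20.4% ± 1.28 in male ESC, 14.6% ± 1.55 in SSEA1+, 19.1% ± 1.45 in SSEA1-, 18.1% ± 3.55 in female MEF and 24.7% ± 8.67 in male MEF. The segment with the group 13 gene stood at 11.3% in iPSC, 5.28% in female ESC, 12.03% in male ESC, 2.16% in SSEA1+, 2.43% in SSEA1-, 5.38% in female MEF and 3.83% in male MEF. In Hoxd the segment at the group 13 end was the lowest in each group, with 8.75% in iPSC, 3.37% in female ESC, 4.86% in male ESC, 2.20% in SSEA1+, 3.31% in SSEA1-, 4.83% in female MEF and 3.45% in male MEF. The middle Hoxd segment was the highest in each group, with 27.5% in iPSC, 16.2% in the female ESC and 24.2% in the female MEF. The segment at the group 13 end was also the lowest in each group in Hoxb and Hoxc, with 2.39% and 5.08% in female MEF. In Hoxb this rests on 5 tiles and leaves out methylated ones, such as chr11:96110001-96111000, described below. Of 15 tiles tested there between female ESC and female MEF, 2 were called higher and 3 lower. The ranking covers only the tiles measured in all samples. In Hoxa the segment at the group 13 end was the lowest in all groups but iPSC and male ESC, where the middle segment was lowest. Position was not separated from the number of CpGs read in a tile. Spearman's rho of tile level with that number was -0.488 to -0.205 across groups over the 4 clusters, and -0.654 to -0.418 in Hoxd. Across Hoxa tiles the female ESC minus female MEF difference was the more negative the farther from the group 13 end (Spearman's rho = -0.338 over 53 tiles that share libraries), and in the other clusters rho was -0.111 to -0.218.

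Near Hoxa5, the tile at chr6:52150001-52151000 was the most methylated of the Hoxa tiles measured in all samples, with a median of 11 CpGs and 275.0 reads. It read 25.6 and 24.7% in iPSC, 17.1, 22.1, 15.6 and 18.8% in female ESC, 24.8 and 23.9% in the male ESC, 41.7 and 46.3% in SSEA1+, 42.7 and 43.7% in SSEA1-, 54.8, 54.7, 77.9 and 79.3% in female MEF, with 48.8 and 58.9% in male MEF. All fibroblast samples were above all intermediates, and these above all pluripotent samples, with the type C MEF libraries highest. Female ESC were 48.3 points below female MEF (quasi-binomial F test, adjusted p = 2.34e-07) and iPSC were 41.5 points below them (adjusted p = 3.85e-07). The neighbouring tile at chr6:52152001-52153000 read 28.5 and 30.8% in iPSC, 24.1, 8.70, 10.5 and 19.4% in female ESC, and 89.6, 74.0 and 75.3% in the female MEF measured there. Its female ESC minus female MEF difference was -64.0 points (adjusted p = 1.75e-06).

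Farther along the same stretch, the tile at chr6:52120001-52121000 read 8.70, 12.5, 12.5 and 12.3% in female ESC and 47.1, 44.1, 52.1 and 49.5% in female MEF. It was 36.7 points lower in female ESC (quasi-binomial F test, adjusted p = 2.20e-06), and lower in 4 of 4 samples. At the tile chr6:52111001-52112000, just outside the stretch, the order was the other way. It read 66.7 and 60.8% in iPSC, 36.4, 28.1, 37.2 and 27.6% in female ESC, 47.4 and 66.3% in the male ESC, 37.4 and 30.3% in SSEA1+, 7.07 and 9.90% in SSEA1-, 7.18, 7.61, 15.1 and 10.8% in female MEF, with 6.998 and 12.6% in male MEF. Pluripotent samples and SSEA1+ were all above SSEA1- and MEF. Female ESC were 22.2 points above female MEF (adjusted p = 5.05e-05).

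In Hoxb the largest fall was at chr11:96110001-96111000, with a median of 5 CpGs read. This tile stood at 40.5, 18.6, 17.5 and 10.7% in female ESC and 86.9, 77.1, 83.6 and 87.3% in female MEF. The difference was -61.9 points (quasi-binomial F test, adjusted p = 4.78e-07). No Hoxb protein gene start could be placed, so the tile is given no gene.

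Every called Hoxc tile was higher in female ESC. The tile at chr15:102776001-102777000 read 44.0, 24.8, 32.5 and 40% in female ESC and 11.3, 11.8, 13.8 and 10.7% in female MEF, a difference of 23.4 points (quasi-binomial F test, adjusted p = 1.36e-04). The tile at chr15:102857001-102858000 read 36.0, 40.4, 31.1 and 31.1% in female ESC and 17.4, 10.1 and 9.26% in the female MEF measured there. In both tiles all ESC samples stood above all MEF samples.

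Hoxd held tiles of both kinds a short distance apart. The tile at chr2:74538001-74539000, 2.68 kb from the Hoxd9 start, read 30.5, 18.8, 36.4 and 37.5% in female ESC and 81.7, 60.7, 66.1 and 64.3% in female MEF. It was 37.4 points lower in female ESC (quasi-binomial F test, adjusted p = 5.38e-05). The tile at chr2:74560001-74561000 was the most methylated of the Hoxd tiles measured in all samples, with 73.6 and 85.2% in iPSC, 61.1, 68.2, 50 and 59.6% in female ESC, 92.2 and 94.0% in the male ESC, 21.1 and 22.2% in SSEA1+, 63.4 and 27.8% in SSEA1-, 18.2, 20, 27.3 and 22.0% in female MEF, with 25.3 and 20.8% in male MEF. All pluripotent samples were above all MEF samples, and the SSEA1- samples stood far apart.

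In male ESC against male MEF, 18 of 166 Hox tiles were higher and 9 lower. Over the genome 21.4% of tiles were called, 5.24% higher and 16.2% lower, against 10.8% higher and 5.42% lower among Hox tiles. Hoxa had 6 higher and 6 lower of 43 tiles, Hoxb 5 and 1 of 48, Hoxc 2 and 0 of 36, and Hoxd 5 and 2 of 39. The Hoxa stretch again held the lower calls, with 6 of its 13 tiles lower and 2 higher, against 0 lower and 4 higher in the other 30. In males 46.2% of the stretch was lower, beside 16.2% of all tiles. The stretch was chosen by tiles lower in female ESC than in female MEF. Among other autosomal tiles measured in all samples, 44.3% were under 10% in male MEF and could not be called lower. The 2 shares are therefore not like for like. The tile at chr2:74560001-74561000 was 70.0 points higher in male ESC (quasi-binomial F test, adjusted p = 1.98e-05). At chr11:96130001-96131000, male ESC read 47.8 and 50.2% and male MEF 9.22 and 6.19%, a difference of 41.3 points (adjusted p = 1.45e-09).

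The female and male comparisons share no sample. Of 165 Hox tiles tested in both, 7 were higher in female and 18 in male ESC, with 6 in common, which is 85.7% of the female and 33.3% of the male calls. For lower tiles the counts were 12 and 9, with 8 in common, which is 66.7% of the female and 88.9% of the male calls. The same overlap was not computed over all tiles, where 50.9% were called lower in females and 16.2% in males. The shares in common therefore do not set Hox tiles apart from other tiles.

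In iPSC against female MEF, 16 of 168 Hox tiles were higher and 14 lower. Over the genome 29.5% were called, 3.69% higher and 25.8% lower, against 9.52% higher and 8.33% lower in Hox tiles. Hoxa had 4 higher and 9 lower of 47, Hoxb 4 and 3 of 47, Hoxc 7 and 0 of 40, and Hoxd 1 and 2 of 34. The Hoxa stretch held 7 lower and 1 higher of 12 tiles, so 58.3% were lower, beside 25.8% of all tiles. This comparison and that of female ESC share the female MEF samples, so their likeness is not independent. The same samples set the stretch, so its share is not like for like with that of all tiles. At chr6:52111001-52112000 iPSC were 53.6 points higher (quasi-binomial F test, adjusted p = 9.99e-07), and at chr15:102776001-102777000, with 55.7 and 51.2% in iPSC, they were 41.5 points higher (adjusted p = 1.05e-05). Without female MEF 3 and 4 the count was 12 higher and 5 lower.

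Against female ESC, all 7 called Hox tiles of 155 were higher in iPSC, where 17.9% of tiles were called over the genome (17.6% higher and 0.29% lower). Hoxc held 4 of them, Hoxd 2 and Hoxa 1. At chr2:74566001-74567000, iPSC read 52.6 and 49.0% and female ESC 11.4, 21.9, 20.2 and 20.8%, a difference of 32.3 points (quasi-binomial F test, adjusted p = 4.97e-04). At chr15:102780001-102781000, a tile with a median of 3 CpGs read, iPSC stood at 53.8 and 46.8% and female ESC at 25.9, 35.0, 5.45 and 21.4%. With library type as a term in the model, 0 Hox tiles were called in this comparison. The share of all tiles called with this term was not counted, so the 0 does not set Hox tiles apart.

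Against SSEA1+, 15 of 123 Hox tiles were higher in iPSC and 1 was lower, while 25% of tiles were called over the genome, 4.09% higher and 20.9% lower. The higher tiles were 2 in Hoxa, 2 in Hoxb, 5 in Hoxc and 6 in Hoxd. At chr11:96130001-96131000, iPSC read 45.4 and 43.1% and SSEA1+ 6.93 and 4.08%, a difference of 38.7 points (quasi-binomial F test, adjusted p = 3.45e-08). With library type as a term, 8 Hox tiles were higher and 1 lower, and the share of all tiles was not counted.

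Few tiles were called between the intermediates and female MEF, in the Hox clusters as over the genome. SSEA1+ had 1 tile higher and 3 lower of 171 (2.34%), with 2.47% of all tiles called over the genome (0.45% higher and 2.02% lower). SSEA1- had 1 tile lower of 190 (0.526%), with 1.84% called (0.291% higher and 1.55% lower). The tile called lower in both was chr6:52150001-52151000, where SSEA1+ were 22.7 points (adjusted p = 0.0265, quasi-binomial F test) and SSEA1- 23.5 points (adjusted p = 0.0157) below female MEF. Without female MEF 3 and 4 the differences were -10.7 and -11.5 points and neither was called. Both calls were also lost without either of their own replicates and without female MEF 3 or 4 alone. At the tile chr6:52111001-52112000, SSEA1+ were 23.7 points higher than female MEF (adjusted p = 0.00631). The SSEA1+ count was 0 without SSEA1+ replicate 1, 2 without SSEA1+ replicate 2, 7 without female MEF 2 and 1 without female MEF 3 and 4.

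SSEA1+ and SSEA1- differed in 2 of 174 Hox tiles (1.15%), both in Hoxa, with 1.25% of all tiles called (0.489% higher and 0.757% lower). At chr6:52127001-52128000, SSEA1+ read 1.04 and 6.96% and SSEA1- 38.3 and 31.4%, a difference of -30.8 points (quasi-binomial F test, adjusted p = 0.00889). At that tile iPSC read 6.51 and 6.70%, female ESC 4.95, 9.29, 9.34 and 8.90%, and the female MEF 29.1, 25.2, 30.05 and 33.6%. At chr6:52111001-52112000, SSEA1+ were 25.4 points higher than SSEA1- (adjusted p = 0.0115). In both tiles SSEA1+ lay on the side of ESC and iPSC, and SSEA1- on that of MEF. The 2 tiles were picked by this same difference, and the sides taken by other tiles were not counted. At chr2:74560001-74561000 SSEA1+ averaged 21.6% and iPSC 79.4%, and at chr6:52120001-52121000 they averaged 43.5% and 13.7%. In those tiles SSEA1+ lay nearer the female MEF values given above. Without SSEA1+ replicate 1 neither tile was called. Without SSEA1- replicate 1 the count was 1, with the call at chr6:52111001-52112000 lost, and without SSEA1- replicate 2 the count was 4.

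**Figure D4:**
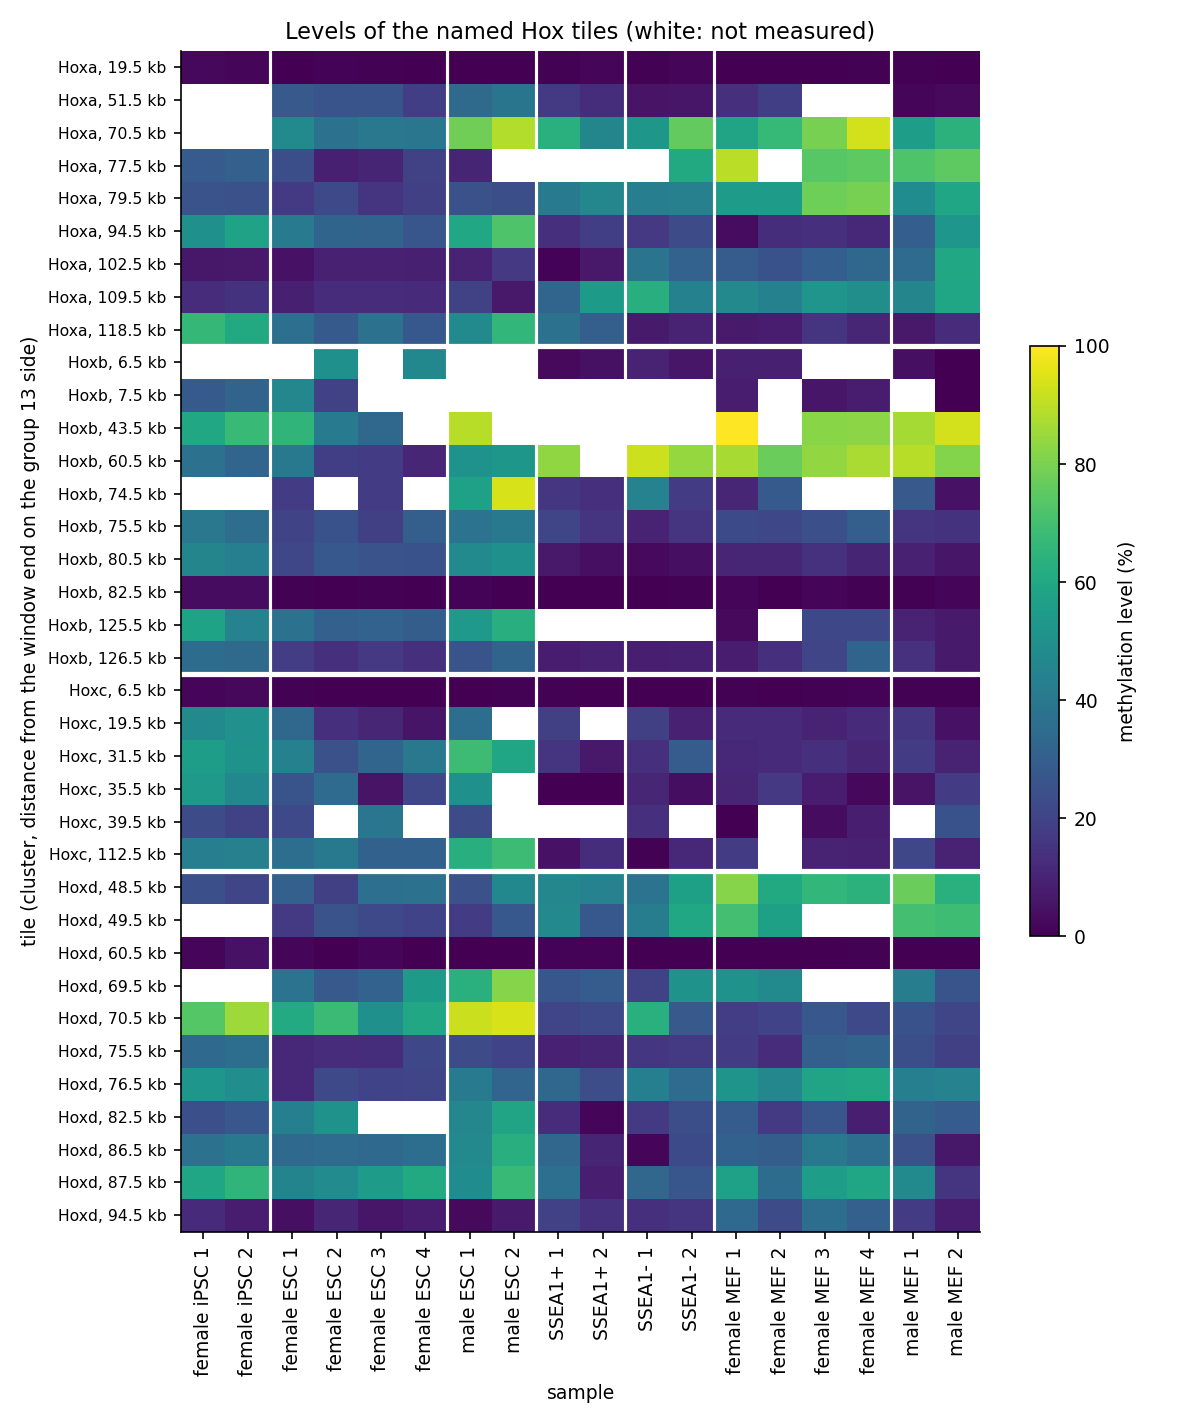
Methylation level (%, colour) of the 36 Hox tiles selected by the naming rule in each of the 18 samples, in order along each cluster; white cells were not measured. The tiles of Hoxa and Hoxd show blocks that are high in MEF and low in ESC beside others with the opposite order.

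Between the sexes, all 15 called Hox tiles of 169 were lower in female than in male ESC, where 43.1% of tiles were called over the genome (0.0683% higher and 43% lower). They lay in each cluster, with 5 in Hoxa, 6 in Hoxb, 2 in Hoxc and 2 in Hoxd. At chr6:52159001-52160000, 0.83 kb from the Hoxa6 start, female ESC read 47.8, 37.7, 39.9 and 39.1% and male ESC 78.2 and 88.5%, a difference of -42.2 points (quasi-binomial F test, adjusted p = 1.68e-04). Female and male MEF differed in 1 of 191 Hox tiles, with 1.36% called over the genome (0.536% higher and 0.827% lower). That tile, chr6:52135001-52136000, read 3.15, 13.2, 13.6 and 11.4% in female MEF, against 30.03 and 52.5% in male MEF, a difference of -30.9 points (adjusted p = 0.00800). Without female MEF 3 and 4 it was -33.1 points with an adjusted p of 0.0673. Without male MEF 2 it was -19.7 points, under the 20 points a call needs, and no tile was called.

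At the placed starts, the read CpGs were near 0 in most samples. Hoxa13 stood at 0 to 1.35% and Hoxd1 at 0 to 3.91%, with the highest values in iPSC. The exceptions were Hoxa5, Hoxa6, Hoxd9 and Hoxd12, a limb patterning gene. The Hoxd12 start read 1.67 to 31.3% over all samples. The other placed starts of the windows read 10% or less in every sample read there. At Hoxa5 the level was 2.22% in the iPSC sample read, 0.862, 10.1, 5.56 and 4.08% in female ESC, 4.29 and 0% in the male ESC, 19.0 and 0% in SSEA1+, 14.7 and 28.4% in SSEA1-, 12.7, 18.7, 15.8 and 17.1% in female MEF, with 28.4 and 45.0% in male MEF. Every MEF sample stood above every ESC sample. The tile around that start read 1.73 and 1.68% in male ESC and 17.1 and 30.3% in male MEF, a difference of -22.0 points (quasi-binomial F test, adjusted p = 7.67e-04).

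The methylated CpGs of Hoxa5 were those of the far run in the sequence above, between positions -239 and -214. Their mean was 2.22% in iPSC, 4.85% in female ESC, 0% in male ESC, 22.1% in SSEA1+, 27.0% in SSEA1-, 22.1% in female MEF and 51.0% in male MEF. The pair between -135 and -129 was at 10% in iPSC, 5.90% in female ESC, 6.25% in male ESC, 3.33% in SSEA1+, 2.94% in SSEA1-, 3.41% in female MEF and 10.3% in male MEF. The distal CpGs thus stood above the pair nearer the start in both MEF groups and in both groups of intermediates. At Hoxa6 the level was 6.82 and 5% in iPSC, 2.33% in the female ESC and 0% in the male ESC sample read, 0 and 0% in SSEA1+, 10.7 and 10% in SSEA1-, 6.35, 6.94, 25 and 21.2% in female MEF, with 13.3 and 22.4% in male MEF. The values of 25 and 21.2% are those of the type C libraries. In the far run of Hoxa6, from -196 to -177, the mean was 9.91% in female ESC and 4.80% in female MEF. It was 29.9% in male MEF and 25.2% in SSEA1- there. From -145 to -92 it was 0% in female ESC, 11.3% in female MEF and 13.9% in male MEF. Different library types read different CpGs at this start, and no test was made of these start values.

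**Figure D5:**
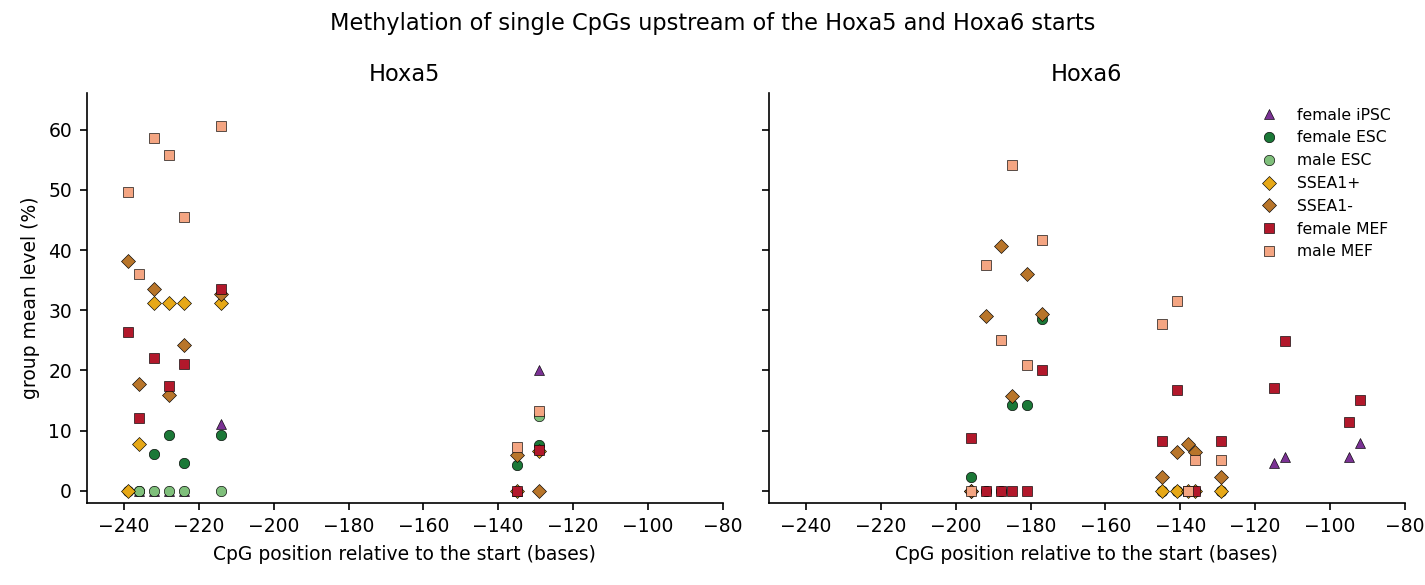
Group mean methylation level (%) of single CpGs against their position (bases) before the Hoxa5 start on the left and the Hoxa6 start on the right; colours and shapes give the groups. At Hoxa5 the distal run averaged 51.0% in male MEF and 22.1% in female MEF, against 0% in male ESC and 4.85% in female ESC.

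The lowest tiles of the clusters, among those measured in all samples, were low in all groups. At Hoxa13, the tile chr6:52210001-52211000 read at most 2.01% in any sample, and in Hoxc the tile chr15:102751001-102752000 at most 1.98%. In Hoxd the lowest tile was chr2:74550001-74551000, around the starts of Hoxd3, an anterior patterning gene, and Gm38462, with at most 4.84%.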

How the data were processed

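The authors deposited, for each of 18 libraries, counts of methylated and of all reads per CpG and strand, with a score per CpG, which was not used. The build was mm9 per the submitters' processing notes; no aligner or methylation caller is named (not given in the sources used here). Per the labels' protocols, libraries were made by reduced representation bisulfite sequencing with changes for small cell numbers. From these deposited counts, strands were added, CpGs with 5 or more reads kept, and reads summed per 1 kb tile with 3 or more CpGs. Methylated and total reads entered a quasi-binomial regression on group, fitted to all 18 samples, its dispersion moderated over all tiles and kept at 1 or more, with a 2-sided F test and Benjamini-Hochberg adjustment over the genome. Called tiles had an adjusted p under 0.05 and 20 points of difference. Cluster levels averaged the tiles measured in all samples and were tested by 2-sided exact permutation. PCR reads carry no molecular identifiers, so read numbers bound counting error only.

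Named tiles were, per comparison and cluster, the 2 called tiles with the largest difference in each direction, and per cluster the highest and lowest tile over all samples; tiles outside it (the Hoxa stretch, the Hoxa5 start tile) were chosen after their values were seen. The members and lists were chosen with earlier results of these data known. Starts were placed by matching CpG positions of 300 bases of RefSeq sequence to the CpGs read, with at least 5 matches and 3 more than the next position. Library types used cutoffs of 8 and 14% of CpGs read on both strands. Alternatives were read minimums of 3 and 10, reads capped at 50, limma, a library type term, a replicate block, common CpGs, other weightings, a background correction and leaving out each replicate; leaving out female MEF 3 and 4 was chosen after seeing the data. The model was tested on simulated data. Tools were limma 3.58.1 in R 4.3.3, and scipy 1.17.1, pandas 2.3.3 and numpy 2.4.6 in Python 3.11.15.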

Additional observations from a re-analysis of the deposited data

Results flagged for a closer look

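In 7 of 63 groups of 4 samples checked, a sample stood far from the other 3; chance gives about 1 in 20. Female ESC 1 was low at chr6:52120001-52121000 (8.70%), at chr6:52127001-52128000 (4.95%) and at chr2:74566001-74567000 (11.4%). Female MEF 3 was high at chr11:96130001-96131000 (14.2%) and low at chr15:102764001-102765000 (9.82%). Female ESC 4 was high at chr2:74565001-74566000, with 21.8%, and female MEF 2 was low at chr2:74577001-74578000, with 35.4%.

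At 6 tiles every female ESC sample lay below every male ESC sample while every female MEF sample lay above every male MEF sample; the difference between these sex differences was not tested. They are 6 of 29 named tiles measured in all 4 groups, and the pattern held in 11 of 165 Hox tiles (6.67%) and in 2.76% of all tiles. Female ESC alone lay below male ESC in this way in 25.5% of Hox tiles and 59.3% of all tiles. The female minus male differences were -12.01 points in ESC and 14.1 points in MEF at chr6:52178001-52179000, -15.6 and 9.45 points at chr11:96125001-96126000, and -24.0 and 3.81 points at chr11:96130001-96131000. In Hoxd they were -34.7 points in ESC and 15.1 points in MEF at chr2:74559001-74560000, -18.3 and 10.4 points at chr2:74566001-74567000, and -19.9 and 18.5 points at chr2:74576001-74577000.

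The mean Hoxd level was 5.02 points lower in female ESC than in female MEF (a difference of -5.02) and 3.51 points higher in male ESC than in male MEF. The male value was 2.36 points without male ESC 2, 1.87 without male MEF 2, 4.67 without male ESC 1 and 5.15 without male MEF 1. At chr6:52159001-52160000 the ESC minus MEF difference was -33.3 points in females and 23.2 points in males. These differences between the sexes were not tested.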

How the results depend on the processing

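Of 513 recalculations of named tiles under other settings 469 kept the call, and of 400 that left out a replicate 350 did; none changed sign. What depth limits was examined by the minimum of reads per CpG. The causes of the changes below were not tested. The counts below are of Hox tiles only, without the share of all tiles under the same setting. With at least 10 reads per CpG the calls were 7 in female against male ESC, 16 in female ESC against MEF and 2 in female against male MEF. With tiles measured in every sample, a smaller set, they were 8 in female against male ESC, 11 in female and 15 in male ESC against MEF, 13 in iPSC against MEF, 4 in iPSC against ESC and 2 in SSEA1- against MEF. With common CpGs they were 11 in female ESC and 13 in iPSC against MEF, 4 in iPSC against ESC, 0 in SSEA1- against MEF, 1 in SSEA1+ against SSEA1- and 2 in female against male MEF. With library type as a term they were 0 in iPSC against ESC, 9 in iPSC against SSEA1+, 0 in SSEA1- and 2 in SSEA1+ against MEF. limma called 0 in SSEA1- against MEF. Correlations of deviations between samples of the same replicate number were -0.27 to 0.047. They cannot exclude pairing, as library type differs between same-numbered MEF libraries and deviations mirror each other in groups of 2. A replicate block gave 0 in SSEA1- and 1 in SSEA1+ against MEF. Without female MEF 3 and 4 the calls were 18 in female ESC, 17 in iPSC, 0 in SSEA1- and 1 in SSEA1+ against MEF, and 0 in female against male MEF.

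Leaving out each replicate gave 0 to 4 calls in SSEA1+ against SSEA1-, 0 to 7 in SSEA1+ and 0 to 2 in SSEA1- against MEF, and 0 to 3 in female against male MEF. The Hoxb difference of female ESC and MEF ranged from -0.40 to 0.97 points, the Hoxa difference of female and male MEF from -1.49 to 1.18, and Hoxd against the other clusters in male ESC and MEF from -2.82 to 0.188.

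Signs of cluster differences also turned, in points, as follows. Female minus male MEF was 0.188 (10 reads), 0.395 (3 reads), 0.344 (CpGs weighted equally) and 0.0895 (read-weighted) in Hoxa, and -0.239 (3 reads), -0.762 (CpGs weighted equally), -0.390 (replicate block, and also without female MEF 3 and 4) and -2.06 (type B) in Hoxc. Within type B it was -0.442 in Hoxb and -0.700 in Hoxd. Female ESC minus MEF in Hoxc was -0.0934 (10 reads) and -0.277 (read-weighted). SSEA1- minus MEF in Hoxc was 0.184 (3 reads) and 0.824 (type B). SSEA1+ minus SSEA1- in Hoxa was 0.0804 (10 reads) and 0.899 (CpGs weighted equally). iPSC minus MEF was -0.105 in Hoxa and -0.177 in Hoxd after background correction, and -0.218 in Hoxd within type C. Against the other clusters, male ESC minus MEF was -0.0415 in Hoxb (CpGs weighted equally) and 0.188 in Hoxd (type A).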
